A study of Homo sapiens with 32 samples.

Results

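The 12 subunits of RNA polymerase II, POLR2A to POLR2L, were targeted by 48 of the 74987 sgRNAs counted in a pooled CRISPR-knockout screen, 4 sgRNAs for each gene. They were found by matching the Ensembl identifiers of the library's 18638 genes to the 12 gene symbols, so no measured value entered the choice, although the set was proposed with earlier results of these data in view. The cells were RKO, an established human colon carcinoma line, into which Kinprola PKA and Cas9 had been brought by lentiviral integration, and all libraries came from these cells carrying the HD CRISPR sublibrary A. Kinprola PKA is a split-HaloTag recorder that becomes labeled by a fluorescent HaloTag substrate, here CPY-CA, when protein kinase A is active, and its EGFP serves to normalize the label for recorder expression. On day 6 cells were sorted by CPY-CA/EGFP into a high population (around 25% of cells), a low population (around 25%) and a medium population (around 50%, called basal in the labels), and T0 was the day 0 control. The experiment was run as 2 screens, which the labels number as replicates 2 and 3, each with 1 library of every population. In all that follows the value of replicate 2 is given before that of replicate 3.

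RNA polymerase II transcribes the protein-coding genes of the nucleus and many small noncoding RNAs. POLR2A and POLR2B form its active center, the POLR2C and POLR2J pair starts its assembly, POLR2D and POLR2G form a stalk near the RNA exit, and POLR2I is known from its yeast counterpart to act in transcript fidelity and start-site choice. POLR2E, POLR2F, POLR2H, POLR2K and POLR2L are also part of RNA polymerase I, which makes ribosomal RNA, and of RNA polymerase III, which makes transfer RNA and other short RNAs. The enzyme is assembled in the cytoplasm with chaperones before it is imported into the nucleus. The sgRNA cassette acts as a barcode, so its reads count cells with a given targeted gene in a sorted population.

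Each library held between 23369720 and 31777138 reads, with a median of 260 to 356 reads per sgRNA. The member sgRNAs were shallower than the library at the start, with medians of 209.5 and 171.5 reads at T0 against 356 and 304 over all sgRNAs. They were far shallower in the sorted populations, where their medians were 97 and 58.5 reads in high, 23.5 and 17 reads in low and 46 and 26.5 reads in medium. In the low libraries 37 and 42 of the 48 member sgRNAs had fewer than 50 reads, whereas 3.96% and 4.37% of all sgRNAs did. The reads were amplified by PCR and carried no molecular identifier, so they overstate the number of molecules counted and the precision of the low values is below what read numbers alone would give. Reads are given below as counts scaled to the mean library total and, for a gene, summed over its 4 sgRNAs. Whether the cells that still carried these sgRNAs on day 6 had lost the protein was not measured.

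The reads of nearly all subunits were shifted toward the population with high labeling. Together the 48 sgRNAs had 5829 and 4783 scaled reads in high, against 1560 and 1384 in low, with 2551 and 1890 in medium and 11535 and 10347 at T0. High libraries thus lay above low and medium libraries in both screens without overlap. The log2 fold change of high over low was computed within each screen, averaged over the sgRNAs of a gene and tested across all genes with limma. At an FDR of 0.05, 11 of the 12 subunits were higher in high than in low, against 5.25% of all genes, and their median log2 fold change was 2.22, against −0.01 over all genes. Weighted by the share of cells in each gate, the high population held a median of 47.2% and 48.5% of a subunit's sorted reads, compared with 24.8% and 24.9% for all genes. The low population held a median of 12.7% and 12.2% of a subunit's reads, against 25.0% and 25.0% for all genes. In replicate 2 all 12 subunits exceeded the 95th percentile of all genes in the share of reads in high, 29.6%, and in replicate 3 the 11 subunits other than POLR2A exceeded it at 29.5%.

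limma pools the spread over genes of all depths, so its errors can be too small for genes with few reads such as these. An edgeR quasi-likelihood test on the reads summed over a gene's sgRNAs, chosen after seeing the data, takes depth into account. It also placed 11 of the 12 subunits higher in high than in low, against 1275 of the library's 18638 genes. In a limma fit on the libraries with the replicate block, POLR2E had no call even with all of them kept (adjusted p = 0.166). With 1 high or low library left out of that fit, POLR2B, POLR2E or both had no call.

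The 5 subunits shared by the 3 nuclear polymerases were all higher in high than in low, with a median log2 fold change of 2.64. POLR2L (chromosome 11, 837356 to 842529, minus strand, GRCh38 as all coordinates here) is one of the smallest subunits. Its sgRNAs had 1293 and 930 scaled reads in high, against 189 and 160 in low, with 397 and 321 in medium and 1357 and 1282 at T0. The high libraries held the most sorted reads and the low libraries the fewest, with no overlap between populations. The log2 fold change of high over low was 2.64 (SE 0.11, 2 screens, limma adjusted p = 1.06e-07). The 4 sgRNAs of POLR2L had edgeR log2 fold changes between 2.36 and 2.91, and leaving out any 1 of the 4 sgRNAs gave values from 2.57 to 2.74.

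POLR2H (chromosome 3, 184361710 to 184368596, plus strand) had 528 and 352 scaled reads in high, against 127 and 102 in low, with 230 and 144 in medium and 997 and 910 at T0. Its log2 fold change of high over low was 2.66 (SE 0.12, limma adjusted p = 1.06e-07). For its sgRNA 1 there were 40 and 27 deposited reads in high, while the low libraries had 0 and 0 reads. A fold change cannot be measured for that sgRNA, and without it the gene's log2 fold change was 1.84, with 2.02 and 1.66 in the screens.

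POLR2F (chromosome 22, 37952607 to 38041915, plus strand) reached the highest log2 fold change of the 12 genes, 2.74, but the screens differed at 1.75 and 3.73 (SE 0.31, limma adjusted p = 0.000103). Its sgRNAs had 401 and 328 scaled reads in high, against 97 and 33 in low, with 128 and 87 in medium and 1132 and 964 at T0. In the low library of replicate 3, sgRNA 2 had 0 reads, against 153 in the high library of the same screen. sgRNAs 1 and 4 had 3 reads each there, against 25 and 13 in the low library of replicate 2. Without sgRNA 2 the log2 fold change was 1.90, and the screens still differed at 1.32 and 2.47.

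POLR2K, a small zinc-binding subunit (chromosome 8, plus strand), had 420 and 305 scaled reads in high, against 130 and 54 in low, with 242 and 123 in medium and 605 and 469 at T0. The populations kept the order high, medium, low in both screens. Its log2 fold change of high over low was 2.03 (SE 0.12, limma adjusted p = 4.62e-07).

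POLR2E (chromosome 19, 1086574 to 1095380, minus strand) showed the smallest change among the shared subunits. It had 873 and 864 scaled reads in high, against 330 and 504 in low, with 477 and 285 in medium and 1635 and 1562 at T0. The high libraries exceeded the low ones in both screens, but low lay below medium in replicate 2 and above it in replicate 3. Its log2 fold change of high over low was 1.19, with 1.96 and 0.42 in the screens (SE 0.25, limma adjusted p = 0.0109). The gap between screens lay largely in sgRNA 4, which had 4 deposited reads in the low library of replicate 2 and 244 in that of replicate 3. Without sgRNA 4 the screens gave 1.56 and 1.24, and the mean was 1.40. Leaving out sgRNA 1 or sgRNA 2 instead lowered the mean to 1.08 or 0.99. The value of replicate 3 was then 0.01 without sgRNA 1 and −0.21 without sgRNA 2. In a limma fit on the libraries with the replicate block, POLR2E did not pass the threshold (adjusted p = 0.166), and without the low library of replicate 2 its value was 0.28 (adjusted p = 0.672).

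Of the 7 subunits that belong to RNA polymerase II alone, 6 were higher in high than in low, and their median log2 fold change was 2.06. POLR2I (chromosome 19, 36113709 to 36115213, minus strand), the subunit with a role in fidelity, had 280 and 273 scaled reads in high, against 78 and 58 in low, with 107 and 73 in medium and 765 and 683 at T0. High lay above the other populations in both screens, and the low and medium values, lower in low within each screen, overlapped between screens. Its log2 fold change of high over low was 2.69 (SE 0.14, limma adjusted p = 2.82e-07), and leaving out 1 sgRNA gave values from 2.05 to 3.25.

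POLR2J (chromosome 7, 102473128 to 102478922, minus strand) pairs with POLR2C in the assembly platform. It had 432 and 307 scaled reads in high, against 158 and 71 in low, with 160 and 127 in medium and 685 and 658 at T0. High exceeded the other populations in both screens, while low and medium were nearly equal in replicate 2. The log2 fold change of high over low was 2.54 (SE 0.11, limma adjusted p = 1.06e-07), and 2.27 without sgRNA 3, which had 0 reads in both low libraries. POLR2C (chromosome 16, 57462660 to 57472009, plus strand) had 366 and 344 scaled reads in high, against 169 and 111 in low, with 183 and 228 in medium and 683 and 608 at T0. Its log2 fold change of high over low was lower than that of its partner, 1.56 (SE 0.12, limma adjusted p = 3.51e-06). Human POLR2J has near-identical gene copies, and matches of its sgRNAs to them were not examined.

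The stalk subunits also rose in high. POLR2G (chromosome 11, 62761565 to 62766710, plus strand) had 334 and 262 scaled reads in high, against 44 and 78 in low, with 106 and 96 in medium and 1006 and 793 at T0. The populations did not overlap, although the log2 fold change of high over low differed between screens, at 3.16 and 1.61 (mean 2.39, SE 0.25, limma adjusted p = 5.52e-05). POLR2D (chromosome 2, 127843553 to 127858155, minus strand) had 392 and 345 scaled reads in high, against 126 and 117 in low, with 265 and 175 in medium and 1033 and 943 at T0. The screens were close at 1.56 and 1.65, with a mean of 1.60 (SE 0.11, limma adjusted p = 1.49e-06).

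The 2 subunits of the active center differed in how much could be measured. POLR2B (chromosome 4, 56977722 to 57031158, plus strand), the second-largest subunit, had 465 and 460 scaled reads in high, against 90 and 81 in low, with 216 and 205 in medium and 1382 and 1183 at T0. Its populations were separate and its log2 fold change of high over low was 2.06 (SE 0.11, limma adjusted p = 2.69e-07). The screens were close at 2.01 and 2.11, but its sgRNAs 1 and 4 had 10 or fewer deposited reads in each low library. sgRNA 1 gave 2.69 and 0.98 in the screens and sgRNA 4 gave 0.62 and 2.13. The small SE therefore does not show the spread of these sgRNAs. The call was lost without the low library of replicate 2 (1.63, adjusted p = 0.291), the high library of replicate 3 (1.56, adjusted p = 0.0963) or the low library of replicate 3 (2.49, adjusted p = 0.0995) in the limma fit on libraries.

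POLR2A (chromosome 17, 7484366 to 7514616, plus strand) encodes the largest, catalytic subunit with the C-terminal repeat domain, and was the subunit without a call. Its 4 sgRNAs together had 44 and 14 scaled reads in high, against 22 and 15 in low, with 38 and 27 in medium and 254 and 294 at T0. High exceeded low in replicate 2 and not in replicate 3. The log2 fold change of high over low was −0.05, with 0.33 and −0.43 in the screens (SE 0.16, limma adjusted p = 0.925), and its sign turned under 4 of the other ways of processing, with values up to 0.60. In the sorted libraries a POLR2A sgRNA averaged 6.69 scaled reads, whereas the averages for the other subunits lay between 36.2 and 138.9. A difference between high and low was not detectable for POLR2A at this depth.

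The single sgRNAs were tested with edgeR, each on its own counts in the sorted libraries with screen as block. The p-values were adjusted over all sgRNAs tested. Of 45 member sgRNAs with enough reads for the test, 27 were higher in high than in low at an FDR of 0.05, against 2.95% of all sgRNAs tested. An unadjusted p under 0.05 was found for 35 of the 45, and the share over all sgRNAs was not counted. The 3 untested sgRNAs were 2 of POLR2A and 1 of POLR2J. By direction alone, 42 of the 48 had more reads in high than in low in both screens, compared with 27.5% of all sgRNAs, and the other 6 were the 4 sgRNAs of POLR2A and 2 of POLR2E. All 4 sgRNAs of POLR2H and all 4 of POLR2L passed the test, as did 3 of POLR2G. For each of POLR2B, POLR2C, POLR2D, POLR2E, POLR2F, POLR2I, POLR2J and POLR2K, 2 sgRNAs passed. sgRNAs of 1 gene share their target and are not replicates of a condition. Fewer member sgRNAs passed when the low or the high library of replicate 2 was left out. The number over all sgRNAs also fell in those fits, so the drop is not particular to the members.

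The sgRNA with the smallest adjusted p was sgRNA 4 of POLR2L, with 603 and 324 deposited reads in high, against 75 and 54 in low, with 182 and 124 in medium and 507 and 393 at T0. Its edgeR log2 fold change of high over low was 2.70 (adjusted p = 1.31e-23), close to the 2.70 and 2.68 found in the single screens. In replicate 2 this sgRNA had more reads in the high library than at T0. Of POLR2B, sgRNAs 2 and 3 passed the test, with edgeR log2 fold changes of 2.86 (adjusted p = 1.30e-13) and 2.21 (adjusted p = 1.18e-07), whereas sgRNA 4 had only 7.84 and 10.2 scaled reads at T0 and could not be judged.

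Setting each outer population against medium shows whether the shift lay in the gain of high or the loss of low. In high against medium, 9 of the 12 subunits were higher (limma), against 1.7% of all genes, with a median log2 fold change of 1.36, against −0.01 over all genes. POLR2F had the largest value, 2.01 (SE 0.16, adjusted p = 0.00747), but 1.499 without sgRNA 1, which had 0 reads in the medium library of replicate 3. In the limma fit on libraries its call was lost without the high library of replicate 3 (1.36, adjusted p = 0.130), as was that of POLR2G without the high library of replicate 2 (1.09, adjusted p = 0.128). POLR2E had no call in that fit, with the replicate block, even with all libraries kept (1.17, limma adjusted p = 0.320). Its value was 0.50 without the medium library of replicate 3. In the reported test the 3 subunits without a call were POLR2B at 1.75 (0.79 and 2.71 in the screens, adjusted p = 0.190), POLR2D at 0.70 (adjusted p = 0.0525) and POLR2A at −0.18 (adjusted p = 0.656). With edgeR on summed reads, POLR2B (adjusted p = 2.65e-05) and POLR2D (adjusted p = 0.0247) passed too. By that test 11 of the 12 were higher, against 662 of the library's 18638 genes. The number of single member sgRNAs called higher in high than in medium was 13 (edgeR), against 1.13% of all sgRNAs tested.

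In low against medium, 6 of the 12 subunits were lower (limma), against 1.54% of all genes, with a median log2 fold change of −0.85, against a median near 0 over all genes. They were POLR2H at −1.24 (adjusted p = 0.00766), POLR2J at −1.23 (0.000808), POLR2L at −1.01 (0.00160), POLR2I with nearly the same value (0.00212), POLR2K at −0.98 (0.00198) and POLR2D at −0.90 (0.00313). The 2 largest of these values lean on an sgRNA with 0 reads in both low libraries, sgRNA 1 of POLR2H and sgRNA 3 of POLR2J, for which no fold can be measured. Without that sgRNA the log2 fold change of low over medium was −0.62 for POLR2H and −0.69 for POLR2J. This side of the shift was less firm. With edgeR on summed reads, POLR2H (adjusted p = 0.101), POLR2I (0.695) and POLR2J (0.632) did not pass. POLR2B did (log2 fold change −1.29, adjusted p = 3.32e-05), which left 4 subunits lower, against 506 of the library's 18638 genes. In the limma fit on libraries, leaving out either low library lost the calls of these 6 subunits, but most calls over all genes were lost too. That loss is therefore not particular to the subunits. Their values then lay between −1.53 for POLR2H and −0.79 for POLR2I, both without the low library of replicate 3. Of the single member sgRNAs, 5 were lower in low than in medium (edgeR), against 0.753% of all sgRNAs tested.

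Whether both sides moved equally far from medium was tested on the log2 scale by adding low and high and subtracting 2 times medium. The values lay between −0.32 for POLR2A and 1.44 for POLR2B, which averaged −0.43 and 3.31 in the screens (SE 0.75) and leans on sgRNAs 1 and 4 with 0 reads in the medium library of replicate 3. limma called 0 of the 12, against 0.0376% of all genes called higher. An unadjusted p under 0.05 was found for 4 of the 12, and for 1279 of all 18638 genes. edgeR on summed reads called 1 of the 12 higher, against 144 of the library's 18638 genes. The median of the 12 was 0.54, and neither side was shown to have moved farther than the other.

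All 12 subunits had lost reads since T0. The sorted libraries were combined in the proportion of their gates into a reconstructed day 6 pool. The pool was lower than T0 for all 12 (limma), against 8.35% of all genes, with a median log2 fold change of −2.10, against 0.04 over all genes. In the pool the 12 genes kept between 14.0% and 42.8% of their T0 reads in replicate 2 and between 7.06% and 37.5% in replicate 3, whereas the medians of all genes were 102.2% and 102.3%. Loss was measured relative to the library, since the reads of a library add up to its total. POLR2A lost the most, with 36 and 21 scaled reads in the pool, against 254 and 294 at T0, and a log2 fold change of −3.40 (SE 0.15, limma adjusted p = 1.15e-15). Next came POLR2G at −2.67, POLR2F at −2.60 and POLR2I at −2.52. By the mean over sgRNAs POLR2L lost the least, with a log2 fold change of −1.45 (SE 0.10, limma adjusted p = 7.40e-12). It had 569 and 433 scaled reads in the pool, against 1357 and 1282 at T0. By summed reads POLR2L kept 41.9% and 33.8%, while POLR2K kept the most in replicate 2 (42.8%) and POLR2C in replicate 3 (37.5%). In the edgeR test 47 of the 48 sgRNAs were lower in the sorted cells than at T0, against 6.29% of all sgRNAs tested, and sgRNA 4 of POLR2B, with few reads at T0, was the one that did not pass.

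The loss since T0 and the shift toward high share the sorted libraries, and their values are set side by side without a test. POLR2L lost the least by the mean over sgRNAs and had a log2 fold change of high over low of 2.64. POLR2F lost far more and had 2.74. POLR2C and POLR2K lost about as little as POLR2L, at −1.64 and −1.59, but their values of high over low were 1.56 and 2.03. Between the 2 screens the log2 fold changes of the pool over T0 correlated at r = 0.692 (Spearman's rho = 0.657) over the 12 genes. Those of high over low correlated at r = 0.536 (rho = 0.336), and those of high over medium at r = 0.551 (rho = 0.392). For low over medium r was −0.229 (rho = −0.427), so the screens did not order the 12 genes alike there. For the asymmetry about medium r was −0.183 (rho = −0.063). These correlations describe 12 genes that share libraries and the low read numbers described above, and POLR2A was the lowest of them for high over low in both screens.

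Genes that work with RNA polymerase II were counted in the same fits. Among 14 genes for its assembly and nuclear import, 12 were higher in high than in low (limma), against 5.25% of all genes, with a median log2 fold change of 2.02. The largest value was that of RUVBL1 at 3.45 (SE 0.12, adjusted p = 4.09e-08), an ATPase that acts with a chaperone complex in building the enzyme and that also serves chromatin remodelers. PDRG1, a member of the same chaperone complex, was at 2.53 (SE 0.11), RUVBL2, the partner ATPase of RUVBL1, was at 2.46 (SE 0.11), and RPAP2, a phosphatase of the C-terminal domain that also helps import, was at 2.42 (SE 0.17). PIH1D1 at 0.34 (adjusted p = 0.142) and POLR2M at 0.06 (adjusted p = 0.867) did not pass. POLR2M bears a subunit-like symbol but encodes a polymerase-associated regulator, and its 4 sgRNAs had 997 and 1026 scaled reads in high, against 1010 and 978 in low.

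Of 31 general transcription factors of RNA polymerase II, which bring it to promoters, 25 were higher in high than in low and 1 was lower (limma), against 5.25% and 2.73% of all genes, with a median log2 fold change of 0.90. GTF2B, which bridges the promoter complex and the polymerase, led with 2.91 (SE 0.14, adjusted p = 1.98e-07), followed by GTF2F2 at 2.03 (SE 0.12), GTF2E2 at 1.49 (SE 0.12) and TAF7 at 1.49 (SE 0.11). The one that was lower, named after its value was seen, was TBP, the TATA-binding protein that also serves RNA polymerases I and III, at −0.72 (SE 0.12, adjusted p = 0.00159). Of 21 elongation and C-terminal domain factors, 13 were higher and 2 lower, with a median of 0.64. The PAF complex partner RTF1 at 1.92, the elongation factor SUPT5H at 1.73 and the C-terminal domain phosphatase CTDP1 at 1.69 were higher (SE 0.11 each), while CCNK, the cyclin of CDK12 and CDK13, was at −1.94 (SE 0.11, adjusted p = 4.32e-07) and its partner CDK13, named after its value was seen, at −0.54 (adjusted p = 0.00929). CDK12, also named after its value was seen, was at −0.02 (adjusted p = 0.955).

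The subunits found in RNA polymerases I and III but not in RNA polymerase II were counted in the same way. Of 19 such genes, 0 were higher in high than in low and 5 were lower (limma), against 5.25% and 2.73% of all genes, with a median log2 fold change of −0.18. An unadjusted p under 0.05 in either direction was found for 8 of the 19, and for 3285 of all 18638 genes. The lowest were POLR1C, shared by polymerases I and III, at −0.88 (SE 0.11, adjusted p = 0.00026), POLR1F at −0.85 (SE 0.14), POLR1E at −0.78 (SE 0.11) and POLR1B, the second-largest subunit of polymerase I, at −0.72 (SE 0.12). The fifth, named after its value was seen, was POLR1A, the largest subunit of polymerase I, at −0.60 (adjusted p = 0.0498). In the pool 13 of the 19 were lower than at T0, against 8.35% of all genes, and 1 was higher, with a median log2 fold change of −0.66. POLR1A, at −2.17 against T0, had lost about as much as POLR2B at −2.15, while the values of high over low were −0.60 for POLR1A and 2.06 for POLR2B. The difference between these lists was not tested.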

How the data were processed

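RKO cells with Kinprola PKA and Cas9 carried the HD CRISPR sublibrary A, and 32 samples were deposited, 4 sequencing lanes for each of 8 libraries. The authors counted the reads with MAGeCK and deposited raw counts per sgRNA and lane, with no normalization. Counting sgRNAs needs no genome build, and neither a build nor an aligner is given in the sources used here. Lanes of a library were summed, since a chi-square test over sgRNAs of 20 reads or more found about as much difference as sampling gives. The 4 columns of the table that match no sample were not used. Libraries held 23369720 to 31777138 reads.

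For genes, each library was scaled to the mean of the library totals, and log2 was taken with a pseudocount of 1 read. The difference within a screen was averaged over the sgRNAs of a gene, and the mean of 2 screens was tested against 0 with limma 3.58.1 in R 4.3.3 (lmFit, eBayes), and p-values were adjusted by Benjamini-Hochberg over 18659 entries (18638 of them genes) for an FDR of 0.05. This follows the study's stated steps, which leave the scaling and pseudocount open. No essential genes were removed here, whereas the study took RKO core-essential genes, by their DepMap score, out of its hit list. The day 6 pool was 0.25 high plus 0.5 medium plus 0.25 low of the scaled counts. The test of single sgRNAs was edgeR 4.0.16 (TMM, filterByExpr, quasi-likelihood fit, screen as block), where the T0 comparison weighted log values by the gates. The screens were independent according to the methods, and the fold change within a screen blocks by replicate number. As a check, libraries of 1 screen deviated together from their populations' means, with correlations of 0.135 between high and medium, 0.097 between high and low, and 0.134 between medium and low. With 2 screens, p-values rest on the spread of 2 values moderated over all genes. Both tests were tried on simulated counts, where limma called more unchanged genes than the FDR allows.

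All 12 member genes are named, and from each other list up to 4 genes past the threshold with the largest change in high against low. Members and lists were chosen with earlier results of these data known. Alternatives were a pseudocount of 5 reads, a minimum mean of 30 reads, DESeq2 1.42.0 size factors and test, centring on sgRNAs without a genomic target, the median over sgRNAs, fits on libraries with and without replicate block, leaving out libraries or screens, and, added after seeing the data, edgeR on summed reads and sgRNAs with at least 50 reads at T0. Names and coordinates are from GENCODE 44 (GRCh38). No sgRNA sequence was read.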

Additional observations from a re-analysis of the deposited data

How the results depend on the processing

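The counts of 11 subunits higher in high than in low and 12 lower than T0 were compared over the alternatives. Both stayed within 1.5 times whenever all libraries were kept. In high against low, the fits on all libraries, with or without replicate block, already gave POLR2E no call. With a high or low library left out, POLR2B, POLR2E or both had none in that comparison. Leaving out a medium library only repeated the reported test there. Without the T0 library of replicate 2, POLR2E lost its call against T0, at −1.88. The other counts were less stable, and the causes were not tested. In low against medium, the 6 subunits lower became 1 in the fit with no replicate block and 0 to 7 with 1 library left out, where 0 to 1 were higher, the 1 being POLR2B without the medium library of replicate 2 (0.63, limma adjusted p = 0.0488). In high against medium, the 9 subunits higher became 3 with no replicate block. For the asymmetry about medium, the 0 subunits higher became 1 after centring on sgRNAs without a target, 3 with the median over sgRNAs, 1 with edgeR on summed reads, 1 with at least 50 reads at T0, and 0 to 1 with 1 library left out. Of single sgRNAs in high against low, 15 to 27 were higher and 0 to 1 lower with 1 library left out. In low against medium, the 5 sgRNAs lower became 3 with no replicate block, 3 with DESeq2 and 1 to 4 with 1 library left out, where 0 to 1 were higher. In high against medium, the 13 sgRNAs higher became 7 with no replicate block, 5 with DESeq2 and 4 to 13 with 1 library left out.

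Signs of single genes turned as follows. POLR2A in high against low was 0.10 with a pseudocount of 5 reads, 0.036 after centring, 0.11 with the median over sgRNAs, 0.60 with edgeR on summed reads and −0.48 to 0.39 with 1 library or screen left out. In high against medium POLR2A was 0.15 with the median over sgRNAs and −0.47 to 0.11 with 1 left out. POLR2E in low against medium was 0.028 with a pseudocount of 5 reads, 0.22 with the median over sgRNAs, 0.14 with edgeR on summed reads and −1.07 to 1.03 with 1 left out. With 1 left out, low against medium ranged from −0.62 to 0.35 for POLR2A, from −1.25 to 0.63 for POLR2B and from −1.57 to 0.10 for POLR2F. The number of all genes called also moved: in high against low, 979 higher became 496 to 979 with 1 library left out and 728 to 1275 otherwise, and 508 lower became 136 to 508 and 308 to 932. In low against medium, 287 lower became 11 to 287 and 133 to 506, and in high against medium, 316 higher became 278 to 405 and 257 to 662. In the pool against T0, 1556 lower became 6072 after centring on sgRNAs without a target, whose median log2 fold changes were 0.23 and 0.25 in the screens. Over all sgRNAs, calls in high against low also fell when a high or low library was left out. Differences between sorted populations were not detectable for POLR2A at its read depth.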

Other observations

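POLR2J3, one of the near-identical copies of POLR2J, has its own 4 sgRNAs in the library and was looked at after the values of POLR2J were seen. Its sgRNAs had 1038 and 935 scaled reads in high, against 813 and 882 in low, with 1108 and 908 in medium and 1314 and 1305 at T0. The log2 fold change of high over low was 0.23 (0.32 and 0.15 in the screens, SE 0.11, limma adjusted p = 0.303), and that of the pool over T0 was −0.39 (SE 0.10, limma adjusted p = 0.00582). POLR2J itself was at 2.54 and −2.05 in the same comparisons.

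In the same edgeR fits 275 sgRNAs without a genomic target were tested. The sgRNAs of this kind had medians of 314 and 314.5 reads in the low libraries, against 23.5 and 17 for the member sgRNAs. They therefore give no background rate at the depth of the members. In high against low, 0 were higher and 3 were lower, and their median log2 fold change was −0.11. In the sorted cells against T0, 24 were higher and 0 were lower, with a median of 0.22.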
